A study of Arabidopsis thaliana with 18 samples.

Results

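The intronless protein-coding genes of Arabidopsis thaliana were described by their full-length transcripts. They were taken as the genes of the Araport11 annotation that overlap no other coding gene and in which every annotated mRNA has 1 exon. There were 4296 such genes among 27444 coding genes, or among 20613 coding genes that overlap no other. The 15799 non-overlapping genes with an intron in every mRNA served as the comparison, and 518 genes with both spliced and unspliced mRNAs were left out. An intronless gene had a median annotated length of 1078 nt and a coding sequence of 669 nt, against 2330 nt and 1110 nt in genes with introns, and 97.2% of the intronless genes had a single annotated mRNA.

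TIF-seq joins the 2 ends of a capped, polyadenylated RNA molecule, so that each read pair gives the start and the end of 1 molecule. The authors merged molecules with nearly the same start and end into TIF-clusters, and a list kept only TIF-clusters of at least 3 read pairs. The 6 lists came from Col-0 seedlings aged 14 days and grown at 22 °C by day and 18 °C by night. They were hen2-2 after 3 h at 4 °C, hen2-2, spt16-1 and ssrp1-2 at 22 °C, wild type after 3 h at 4 °C, and wild type at 22 °C. HEN2 is an RNA helicase that feeds nuclear RNA to the exosome, the main nuclease complex for RNA decay in the nucleus. SPT16 and SSRP1 are the subunits of FACT, a histone chaperone that travels with RNA polymerase II, and each mutant is represented by 1 allele. Each list merged 2 libraries, so no replicate error could be computed between lists, and differences between lists have no test. Intervals below are 95% intervals (Wilson for shares, exact for ratios of read pairs), and those on means run over genes. They cover counting error or the scatter among genes only, and genes are not replicates of a condition.

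The lists held between 410655 and 924907 read pairs, the fewest in hen2-2 at 4 °C. The leaf genes RBCS1A, RCA and CAB1 had between 724 and 4525 read pairs in every list. Of 3 seed storage genes, CRU3 and SESA1 were in no list, and CRA1 had 6 read pairs in hen2-2 at 4 °C, 41 in hen2-2 at 22 °C and none in the other lists. The list for wild type at 22 °C enters all 4 comparisons made with it, so these are not independent of each other.

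A gene without introns needs no splicing, and its transcript can differ between molecules only in where it begins and where it ends. Genes of several plant families commonly lack introns, among them those for light-harvesting proteins, replication histones, SAUR proteins, pentatricopeptide repeat proteins and the AP2/ERF and zinc finger regulators that respond quickly to cold and wounding. A TATA box upstream of the start tends to fix where RNA polymerase II begins, commonly at a pyrimidine followed by a purine. The 3′ end is set by cleavage and polyadenylation, which in plants is directed by loosely conserved A-rich signals, with AATAAA as the best known form.

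The start regions of 6 intronless genes are shown because they hold the TATAAA motif. It was commoner in front of intronless genes than in front of genes with introns of similar read pairs, by less once gene length was weighted in. They run from 45 to 16 nt upstream of the most used 5′ end (TAIR10, sense strand), and capitals mark TATAAA. The end was taken from wild type at 22 °C, except for CBF2 and DREB1A, which were listed only at 4 °C and were read from wild type at 4 °C. The genes encode a light-harvesting protein (LHB1B1), 2 cold regulators (CBF2, DREB1A), a glycine-rich cell wall protein (GRP5) and proteins of unknown function (AT1G70420, AT4G27652).
LHB1B1 (chr2:14524713-14524742, + strand): tatgtacgtTATAAAtacccaaaaacctca
CBF2 (chr4:13016262-13016291, - strand): tatccaaatatcttccggccaaTATAAAca
DREB1A (chr4:13019167-13019196, - strand): tctaaaatatcttccgccatTATAAAacag
AT1G70420 (chr1:26540772-26540801, - strand): caaccataTATAAAagagagcaaagcttca
AT4G27652 (chr4:13809794-13809823, + strand): ctacacataTATAAAgagatcgagaggtct
GRP5 (chr3:7141195-7141224, - strand): ccaaatggtctaTATAAAcaccttattggc
Most of the start windows looked at held no TATAAA, among them those of the regulators RAV1, ERF5, STZ and RHL41. The same window of PSBX, the intronless gene with the most read pairs, held none either and is shown here.
PSBX (chr2:2588330-2588359, - strand): catatctcacatctccaatctctgaacatc

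The sequence around the listed 5′ end is shown for 4 abundant genes because it shows where the listed end lies relative to the base at which transcription commonly begins. The windows run from 20 nt upstream to 9 nt downstream of the most used 5′ end in wild type at 22 °C, and capitals mark a pyrimidine-purine step whose purine lay 6 nt upstream of it. Of the other abundant genes looked at, AT2G45180 had the step at that place and CP12-1, AT2G15960, CAB2 and CAO did not.
PSBX (chr2:2588305-2588334, - strand): acatcactaacctCAaatctctcttctcaa
LHB1B1 (chr2:14524738-14524767, + strand): cctcaccgtaaccTAgctatccaatttcat
DRT112 (chr1:7043349-7043378, - strand): actttctctctttCAccacataaaaactca
PSBY (chr1:25395086-25395115, - strand): agccttcaatttcCAttggtcctcctctct
Over all intronless genes with a whole-ORF TIF-cluster in wild type at 22 °C, 575 of 988 (58.2%, 95% interval 55.1 to 61.2%) had such a step with its purine 6 nt upstream of the listed end, and 23.5% had one at the listed end itself. The position with the most steps was 6 nt upstream in spt16-1 (59.98%) and ssrp1-2 (57.8%), 5 nt upstream in hen2-2 at 22 °C (46.7%), and 4 nt upstream in wild type at 4 °C (40.8%) and in hen2-2 at 4 °C (44.3%). At the other end, an A was commonest 7 nt beyond the listed 3′ end in wild type at 22 °C (45.04%). The listed ends thus lay a few nt inside those positions, by an amount that differed between lists, and distances of a few nt are not compared between lists below.

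Fewer of the intronless genes were listed than of the genes with introns. In wild type at 22 °C, 1036 of 4296 intronless genes (24.1%) had a sense TIF-cluster, against 39.5% of genes with introns. The other lists held 960 intronless genes in hen2-2 at 4 °C, 1062 in hen2-2 at 22 °C, 1070 in spt16-1, 947 in ssrp1-2 and 1022 in wild type at 4 °C. Over the 6 lists, 1483 intronless genes (34.5%) were listed at least once and 602 in every list. The listed genes were the longer ones, with a median length of 1367 nt against 1078 nt over all intronless genes. A gene missing from a list may be silent or may have had fewer than 3 read pairs per TIF-cluster. Its reads may also have fitted more than 1 place, or its TIF-clusters may have been removed by the authors' filters. TIF-clusters that also touched a neighbouring gene were left out here. These cannot be told apart.

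Intronless genes took 13.0% of all read pairs in hen2-2 at 4 °C, 9.63% in hen2-2 at 22 °C, 9.87% in spt16-1, 9.62% in ssrp1-2, 12.1% in wild type at 4 °C and 10.7% in wild type at 22 °C. The share was thus highest in the 2 cold lists. Few genes supplied much of it, since the top 10 genes of a list held between 27.2% (wild type at 4 °C) and 39.99% (ssrp1-2) of the read pairs of intronless genes. The median listed gene had between 11.5 read pairs (hen2-2 at 4 °C) and 18 read pairs (wild type at 4 °C).

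Of the 10 intronless genes with the most read pairs, 7 encode chloroplast proteins of photosynthesis. PSBX, a small subunit of photosystem II, had 4883 read pairs in hen2-2 at 4 °C, 7016 in hen2-2 at 22 °C, 8361 in spt16-1, 6310 in ssrp1-2, 5307 in wild type at 4 °C and 10123 in wild type at 22 °C. Scaled to 1000000 read pairs of the list (RPM), PSBX was highest in wild type at 22 °C (12007 RPM) and in hen2-2 at 4 °C (11891 RPM) and lowest in wild type at 4 °C (7690 RPM). LHB1B1, an LHCB1 protein of the light-harvesting antenna, had 2493 read pairs in hen2-2 at 4 °C, 4169 in hen2-2 at 22 °C, 4975 in spt16-1, 6523 in ssrp1-2, 3517 in wild type at 4 °C and 4357 in wild type at 22 °C. It was the gene with the most read pairs in ssrp1-2. The LHCB1 genes are near-identical copies and only uniquely placed reads were kept, so the values of LHB1B1, CAB2 and CAB3 are uncertain.

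DRT112, a plastocyanin that carries electrons to photosystem I, had 1632 read pairs in hen2-2 at 4 °C, 2753 in hen2-2 at 22 °C, 3562 in spt16-1, 2808 in ssrp1-2, 2114 in wild type at 4 °C and 4092 in wild type at 22 °C. CP12-1, a regulator of the Calvin cycle, had 2511 read pairs in hen2-2 at 4 °C, 2855 in hen2-2 at 22 °C, 4044 in spt16-1, 2272 in ssrp1-2, 2729 in wild type at 4 °C and 2411 in wild type at 22 °C. The remaining genes of the 10 were PSBTN and PSBY of photosystem II, CAB2, CAO (a subunit of the chloroplast signal recognition particle), the lipid-transfer-like AT2G45180 and the stress-induced AT2G15960. AT2G15960 varied most visibly among the 22 °C lists, with 820 read pairs in hen2-2, 2554 in spt16-1 and 1576 in ssrp1-2, against 1156 in wild type.

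**Figure D1:**
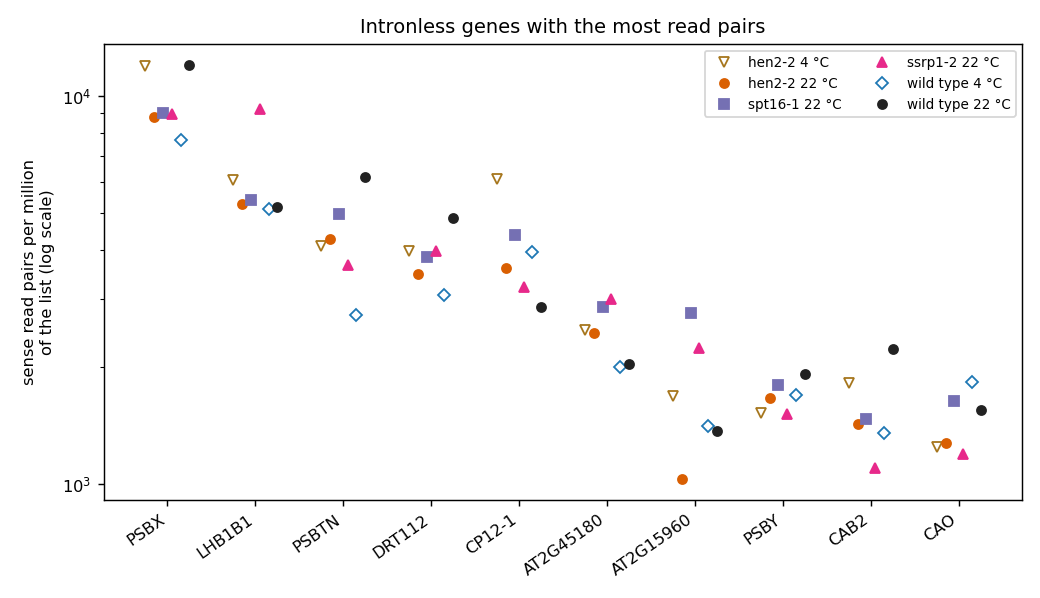
Sense read pairs in RPM (log scale) for the 10 intronless genes with the most read pairs over the 6 lists; each point is 1 list of 2 merged libraries, so there are no error bars. The 6 points of a gene lie within a factor of 10, and PSBX is the highest in every list except ssrp1-2, where LHB1B1 is.

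Most TIF-clusters of intronless genes covered the whole open reading frame (ORF), that is, they began before the start codon and ended after the stop codon. In wild type at 22 °C, 3318 of 4399 sense TIF-clusters (75.4%) were whole-ORF, 977 (22.2%) began inside or downstream of the coding sequence and reached past its end, 95 ended before the stop codon and 9 had both ends inside. The whole-ORF share ran from 69.9% in hen2-2 at 4 °C to 80.5% in ssrp1-2. The median whole-ORF TIF-cluster of an intronless gene spanned 994 nt in wild type at 22 °C.

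An intronless gene with whole-ORF transcripts had on average 3.36 isoforms (SD 3.34 over 988 genes) in wild type at 22 °C, with a median of 2. Of these genes 344 had 1 isoform and 50 had 10 or more. Genes with introns, averaged within bins of the same read pairs per gene and weighted to the intronless genes, had 3.55 isoforms. The difference of -0.20 lay within the 95% interval of the intronless mean (± 0.21). When the comparison genes were weighted by gene length as well, they had 3.23 isoforms and the difference was 0.12, so no difference in isoform number held up under both. The same change of sign occurred in all 6 lists, from -0.22 to -0.07 with read pairs alone and from 0.09 to 0.22 with length added. Isoform counts rose with read pairs in wild type at 22 °C, from a mean of 1.66 in intronless genes of 6 to 11 read pairs to 13.4 in the bin with the most. In genes of 3 to 5 read pairs the count was fixed at 1, because a TIF-cluster needs at least 3 read pairs.

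The ends divided differently. Ends within 20 nt of the next one were counted as the same, so a chain of ends counted as 1 can span more than 20 nt. Intronless genes then had 1.405 distinct 5′ ends and 2.10 distinct 3′ ends per gene in wild type at 22 °C. Of these genes 420 had more 3′ than 5′ ends, 119 had more 5′ than 3′ ends and 449 had equal numbers. The 3′ ends were more numerous than in genes with introns of similar read pairs (1.90, a difference of 0.20). The same held when length was weighted in (1.84, a difference of 0.26). The interval of the intronless mean was ± 0.09, which leaves out the error of the weighted comparison mean. With TIF-clusters within 50 nt merged, the difference fell from 0.20 to 0.0866, about the size of that interval. In all 6 lists the mean was higher in intronless genes, by 0.16 to 0.24 with read pairs weighted and by 0.22 to 0.30 with length added. The 5′ ends were fewer than in genes with introns of similar read pairs (1.53), but with length weighted in the comparison gave 1.36, and across the lists that difference ran from -0.03 to 0.04. A single 5′ end was seen in 70.5% of the intronless genes and a single 3′ end in 46.0%. Both shares, and the 449 genes with equal numbers, include 219 genes of 3 to 5 read pairs, which could hold only 1 TIF-cluster.

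**Figure D2:**
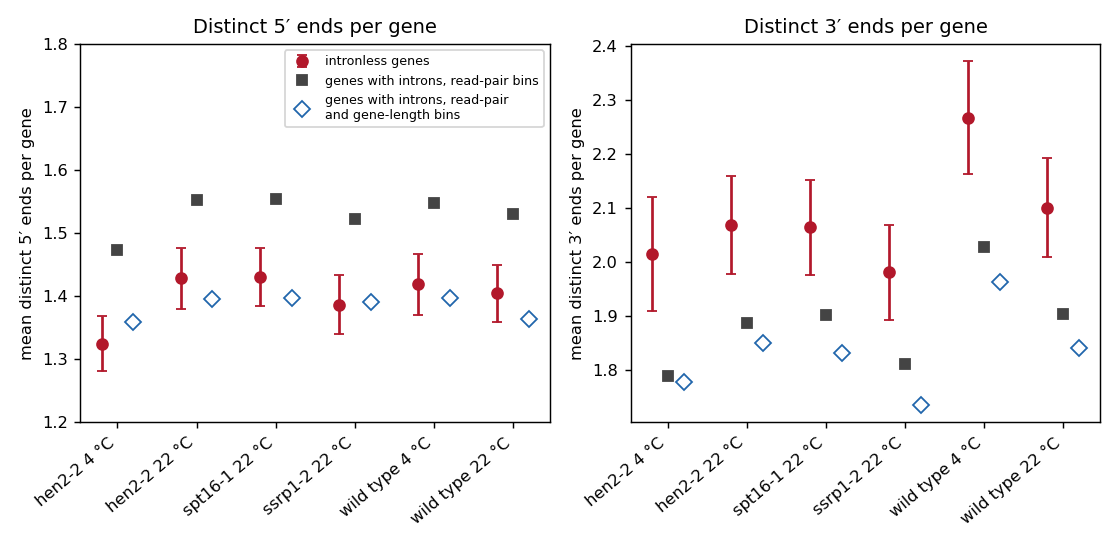
Mean number of distinct 5′ ends (left) and 3′ ends (right) per gene in each list: circles are intronless genes with 95% intervals over genes, filled squares are genes with introns weighted to the same read pairs, and open diamonds are weighted to read pairs and gene length. The vertical axes do not start at 0. On the right the circles lie above both comparison points in all 6 lists, and on the left they lie below the squares but close to the diamonds.

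The isoform-rich intronless genes were again mostly photosynthetic. DRT112 had 33 whole-ORF isoforms in wild type at 22 °C, the most of all, and between 23 (hen2-2 at 4 °C) and 34 (wild type at 4 °C) in the other lists. In wild type at 22 °C these isoforms shared 1 distinct 5′ end and 3 distinct 3′ ends, and its largest TIF-cluster of 605 read pairs spanned 777 nt, from 85 nt before the start codon to 188 nt after the stop codon. ATPC1, the gamma subunit of the chloroplast ATP synthase, had 25 isoforms, PSBY 23, PSBX 20 and the protease gene ASPG1 20. PSBX had 2 distinct 5′ ends and 4 distinct 3′ ends in wild type at 22 °C, and its largest TIF-cluster, of 5732 read pairs and 580 nt, held 58.0% of its whole-ORF read pairs. ASPG1 divided mainly at its 3′ end, with 8 distinct 3′ ends but 2 distinct 5′ ends.

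The most used 5′ end of an intronless gene lay a median of 65 nt before the start codon in wild type at 22 °C (95% interval 62 to 68 nt, 988 genes), and the most used 3′ end 170 nt after the stop codon (169.5 nt, 163 to 176 nt). Genes with introns elsewhere but none in the untranslated region concerned had 69 nt and 184 nt. With length weighted in the values were 58 nt and 170 nt, so the sign of the 5′ difference turned and the 3′ difference shrank to -0.5 nt. The most used ends lay inside the annotated gene, 117 nt downstream of the annotated start and 107 nt upstream of the annotated end in intronless genes, against 104 nt and 92 nt in genes with introns. Both ends of intronless genes lay further inside than those of genes with introns in all 6 lists, under both weightings.

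**Figure D3:**
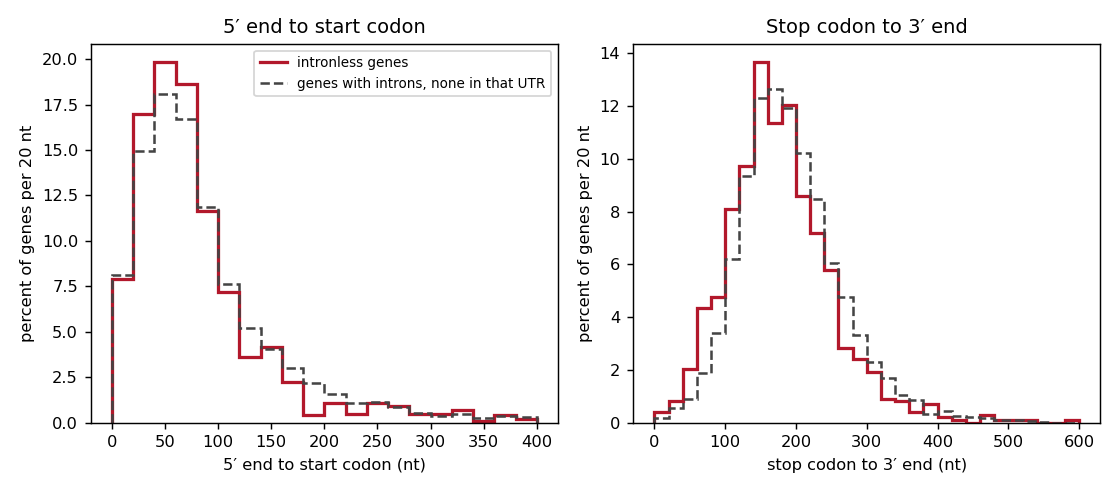
Distribution over genes of the distance from the most used 5′ end to the start codon (left) and from the stop codon to the most used 3′ end (right) in wild type at 22 °C, as percent of genes per 20 nt; solid lines are intronless genes and dashed lines are genes with introns, none of them in that untranslated region. The solid curves peak between 40 and 60 nt on the left and between 140 and 160 nt on the right, and the right-hand solid curve lies towards shorter distances than the dashed one.

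The most used 5′ end rarely moved between conditions. It lay within 20 nt of its partner in 86.2% of 254 intronless genes for hen2-2 at 4 °C over hen2-2 at 22 °C, 90.9% of 351 for hen2-2 over wild type, 90.5% of 368 for spt16-1, 89.3% of 319 for ssrp1-2, and 87.7% of 350 for wild type at 4 °C over 22 °C. The most used 3′ end lay within 20 nt in 74.6 to 77.1% of the same genes. In genes with introns the corresponding shares were 85.6 to 86.8% at the 5′ end and 75.3 to 76.5% at the 3′ end.

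TATAAA was searched on the sense strand from 45 to 15 nt upstream of the most used 5′ end. It was present in 254 of 988 intronless genes in wild type at 22 °C (25.7%, 95% interval 23.1 to 28.5%), against 15.8% of genes with introns of similar read pairs and 17.2% of all 7093 genes with such a window. With length weighted in as well the comparison gave 23.6%, and the remaining difference of 2.07 percentage points was smaller than the interval. Across the lists the intronless share was 25.1 to 29.2%, and the length-weighted difference was positive in all 6, the smallest being 2.07 percentage points. Intronless genes with TATAAA had fewer distinct 5′ ends (1.25 per gene, 81.9% with a single one) than those without (1.46 per gene, 66.6%) in wild type at 22 °C, and their median read pairs were higher (19.5 against 15). The same order of 5′ ends was seen in all 6 lists. At the other end, AATAAA on the sense strand from 40 to 5 nt upstream of the most used 3′ end was present in 115 of 988 intronless genes (11.6%), against 10.5% of genes with introns and 10.8% of all genes. With length weighted in, the difference turned to -0.52 percentage points, and across the lists it was positive in 3 and negative in 3. GRP5 carried both motifs, and its 3′ window is shown for that reason, with AATAAA in capitals.
GRP5 3′ window (chr3:7140450-7140479, - strand): aggaAATAAAtgaatgaattagaaaaaata

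Internal starts were TIF-clusters that began downstream of the start codon and ended after the stop codon. In wild type at 22 °C they made up 22.2% of the TIF-clusters of intronless genes, against 17.0% in genes with introns, and were found in 174 intronless genes (16.8%, 95% interval 14.6 to 19.2%), against 15.2% of genes with introns of similar read pairs. The shares of intronless genes were 23.02% in hen2-2 at 4 °C (18.7% of genes with introns), 17.3% in hen2-2 at 22 °C (15.5%), 18.2% in spt16-1 (14.6%), 14.6% in ssrp1-2 (14.3%) and 19.4% in wild type at 4 °C (17.3%). The share of intronless genes was thus the higher one in every list, with a comparison value below the interval in hen2-2 at 4 °C and spt16-1. With length weighted in it was below the comparison in ssrp1-2 by 0.88 percentage points. When intronless was defined by a coding sequence within 1 exon, the sign turned in wild type at 22 °C (14.8% against 15.2%).

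Of the 977 internal-start TIF-clusters in wild type at 22 °C, 171 (17.5%) began within 50 nt of the start codon, 271 between there and the midpoint of the coding sequence, 434 beyond the midpoint and 101 (10.3%) in the 3′ untranslated region. The last share was 5.87% in genes with introns. The paper describes an artefact of TIF-seq that places starts towards the 3′ ends of genes, and a filter against TSS-seq starts to remove it. How much of it remains in the lists was not tested, so late starts here need not be sites of initiation. Of the 174 genes, 132 also had a whole-ORF TIF-cluster and 42 had none. The median internal-start TIF-cluster of an intronless gene spanned 411 nt.

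Summed over the 6 lists and counted from the outermost start codon, the intronless genes with the most read pairs in internal starts were PSBTN, CAB2, CAO, DRT112 and PSAD-1, all nuclear genes for chloroplast proteins. PSBTN, a small photosystem II subunit, had 5216 read pairs in wild type at 22 °C, all in TIF-clusters that began after its outermost start codon. That codon belongs to part of its annotated mRNAs and lies 120 nt upstream of the start codon that all of them share. Counted from the shared start codon, 89.2% of its read pairs were whole-ORF in hen2-2 at 4 °C, 92.7% in hen2-2 at 22 °C, 93.3% in spt16-1, 91.9% in ssrp1-2, 89.9% in wild type at 4 °C and 90.3% in wild type at 22 °C. PSAD-1, a photosystem I subunit, had 62.7% of its read pairs in internal starts in hen2-2 at 4 °C, 60.5% in hen2-2 at 22 °C, 63.4% in spt16-1, 45.2% in ssrp1-2, 50.4% in wild type at 4 °C and 67.7% in wild type at 22 °C. Its largest TIF-cluster in wild type at 22 °C, of 259 read pairs, began 187 nt inside the coding sequence.

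CAO differed from PSAD-1 in where its internal starts lay. It had 42.1% of its read pairs in internal starts in hen2-2 at 4 °C, 53.7% in hen2-2 at 22 °C, 70.3% in spt16-1, 47.6% in ssrp1-2, 48.1% in wild type at 4 °C and 48.1% in wild type at 22 °C. Its most used whole-ORF 5′ end lay 12 nt before the start codon in wild type at 22 °C, and its 2 largest internal-start TIF-clusters, of 196 and 142 read pairs, began 3 and 6 nt after the first base of that codon. Those distances are no larger than the offset of the listed ends described above. CAB2 had 85.2% of its read pairs in internal starts in wild type at 22 °C and CAB3 had between 57.1% (spt16-1) and 75% (wild type at 22 °C), but LHB1B1, their near-identical relative, had 6.61%, and reads that fit more than 1 copy were not kept. CP12-1 had 31.9% of its read pairs in internal starts in wild type at 22 °C but between 9.64% (wild type at 4 °C) and 12.6% (ssrp1-2) in the other 5 lists. DRT112 likewise had its highest share in wild type at 22 °C (27.5%) and its lowest in wild type at 4 °C (13.6%).

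Short TIF-clusters, under 350 nt, that began before the start codon and ended before the stop codon were mostly found in hen2-2. In hen2-2 at 22 °C they occurred in 145 intronless genes (13.7%, 95% interval 11.7 to 15.9%), and in hen2-2 at 4 °C in 157 (16.4%, 14.1 to 18.8%). They occurred in 22 intronless genes in spt16-1 (2.06%), 11 in ssrp1-2 (1.16%), 14 in wild type at 4 °C (1.37%) and 38 in wild type at 22 °C (3.67%). The interval of each hen2-2 list lay above those of the other 4 lists, with 1 list per condition. Genes with introns of similar read pairs had 15.9% in hen2-2 at 22 °C and 19.6% in hen2-2 at 4 °C, above the intronless genes, but 1.95% in wild type at 22 °C, below them. In hen2-2 at 22 °C the difference of -2.21 percentage points turned positive when at least 5 read pairs were required of a TIF-cluster (0.63) or when intronless was defined by the coding sequence (0.65).

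The short RNAs of intronless genes in hen2-2 had a median length of 86 nt (229 TIF-clusters) at 22 °C and 84 nt (231) at 4 °C, against 138 nt (62) in wild type at 22 °C. They amounted to 3480 RPM in hen2-2 at 4 °C, 2136 in hen2-2 at 22 °C, 129 in wild type at 4 °C and 587 in wild type at 22 °C. Of the short TIF-clusters in hen2-2 at 22 °C, 92 (40.2%) ended in the 5′ untranslated region, against 58.3% of those at genes with introns. The genes with introns were not weighted here, and those with an intron in the 5′ untranslated region were not left out. Short TIF-clusters that began after the start codon, wherever they ended, numbered 339 in 88 intronless genes in hen2-2 at 22 °C and 389 in 75 genes in wild type at 22 °C. Whole-ORF TIF-clusters under 350 nt were rare, with 6 in 3 intronless genes in wild type at 22 °C.

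**Figure D4:**
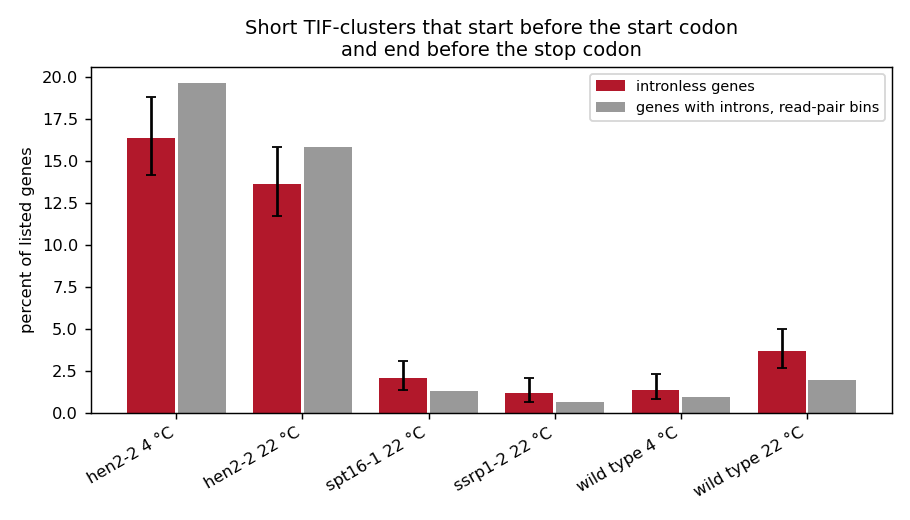
Percent of listed genes with a TIF-cluster under 350 nt that begins before the start codon and ends before the stop codon, by list; red bars are intronless genes with 95% Wilson intervals and grey bars are genes with introns weighted to the same read pairs. The bars of both gene classes in the 2 hen2-2 lists stand at 13.7 to 19.6%, and those of the other 4 lists at 0.64 to 3.67%.

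BBX30, which encodes a small B-box zinc finger protein, was listed only by such short RNAs and only in hen2-2. It had 3 short TIF-clusters with 115 read pairs in hen2-2 at 4 °C and 5 with 232 read pairs in hen2-2 at 22 °C, and no TIF-cluster in the other 4 lists. The largest in hen2-2 at 22 °C, of 145 read pairs, spanned 110 nt from 27 nt before the start codon. No whole-ORF TIF-cluster of BBX30 was listed. AT1G70600, annotated as a ribosomal L18e/L15 protein, had both kinds in hen2-2 at 22 °C, with 119 read pairs in 5 short TIF-clusters beside 696 whole-ORF read pairs. Its short read pairs numbered 72 in hen2-2 at 4 °C, 0 in spt16-1, 0 in ssrp1-2, 3 in wild type at 4 °C and 7 in wild type at 22 °C. ELF4, a component of the circadian clock, had 9 short read pairs in hen2-2 at 4 °C and 21 in hen2-2 at 22 °C but none in the other lists. Its whole-ORF read pairs numbered 49 in hen2-2 at 4 °C, 20 in hen2-2 at 22 °C and 46 to 104 in the other lists. AT2G25720, of unknown function, had 12 short read pairs in hen2-2 at 4 °C, 47 in hen2-2 at 22 °C and none elsewhere. PSBY was the exception, with 47 short read pairs in hen2-2 at 22 °C and 94 in wild type at 22 °C.

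Whole-ORF read pairs in RPM were compared between lists in genes listed in both and with at least 20 read pairs in one of them, and a 2-fold difference was called, without a test. A gene below that minimum in either list entered through the other, and could then be called in a single direction only. Ratios are of RPM values, so that a read pair counts for more in hen2-2 at 4 °C, the smallest list. In whole seedlings, fewer cells of a type and less RNA per cell cannot be told apart. In hen2-2 over wild type at 22 °C, 44 of 471 intronless genes were higher and 68 lower, against backgrounds of 10.1% and 9.59% among all coding genes compared. In ssrp1-2 over wild type, 40 of 442 were higher and 75 lower (backgrounds 12.9% and 10.7%). In spt16-1 over wild type, 69 of 492 were higher and 60 lower (backgrounds 14.4% and 7.66%). The median of all genes in spt16-1 stood at 0.15 on the log2 scale, and with that shift taken out the intronless counts were 54 higher and 69 lower, beside 11.7% and 9.40% of all genes. Per gene compared, the lower calls made up 14.4% in hen2-2, 12.2% in spt16-1 and 17.0% in ssrp1-2, each above its background.

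The largest differences in hen2-2 at 22 °C rested on few read pairs. AT2G15020, of unknown function, had 3 whole-ORF read pairs in hen2-2 at 22 °C and 3 in spt16-1, against 74 in wild type at 22 °C (hen2-2 log2 ratio -4.54, 95% interval -6.85 to -2.94). At 4 °C it had 39 read pairs in hen2-2 and 65 in wild type. STZ, a C2H2 zinc finger repressor of stress responses also known as ZAT10, had 3 read pairs in hen2-2, 8 in spt16-1 and 3 in ssrp1-2 at 22 °C, against 49 in wild type at 22 °C. AT5G38980 had 14 in hen2-2, 48 in spt16-1 and 14 in ssrp1-2, against 127 in wild type at 22 °C. DIC2, a mitochondrial dicarboxylate carrier, had 3 in hen2-2 at 22 °C against 32 in wild type at 22 °C, and FTRA1, a subunit of ferredoxin-thioredoxin reductase, 3 against 23. All 5 genes were thus also lower or absent from the lists of spt16-1 and ssrp1-2. Their hen2-2 values lay below the read-pair minimum for ratios, so they entered through wild type at 22 °C, which fixed their direction. The comparisons with spt16-1 and ssrp1-2 share that list, so the common direction in the mutants is not independent evidence.

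The 5 genes highest in hen2-2 over wild type at 22 °C had 3 to 5 read pairs in wild type. AT5G11070 had 63 read pairs in hen2-2, 47 in spt16-1 and 59 in ssrp1-2 at 22 °C, against 4 in wild type at 22 °C. GATL7, a galacturonosyltransferase-like gene of the cell wall, had 30 in hen2-2, 36 in spt16-1 and 46 in ssrp1-2, against 3 in wild type. MOS2, a nuclear RNA-binding protein, had 26 in hen2-2, 38 in spt16-1 and 31 in ssrp1-2, against 3 in wild type. AT2G36430 had 47 in hen2-2 against 5 in wild type at 22 °C, and AT1G61170 had 27 against 4. The low values belong to wild type at 22 °C, the list that these comparisons share. They lay below the read-pair minimum for ratios, so the filter fixed the direction of these higher calls.

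In wild type after 3 h at 4 °C, 134 of 496 intronless genes were at least 2-fold higher than in wild type at 22 °C (27.0%, 95% interval 23.3 to 31.1%), and 64 were at least 2-fold lower (12.9%, 10.2 to 16.1%). The background over all coding genes compared was 15.3% higher and 10.9% lower. The median intronless gene had a log2 ratio of 0.22, beside 0.08 over all genes. In hen2-2 at 4 °C over hen2-2 at 22 °C, 80 of 427 intronless genes were higher and 67 lower, beside backgrounds of 7.17% and 20.3%. The median of all genes in that comparison was -0.31, and with this shift taken out the counts were 87 higher and 55 lower, beside 8.40% and 17.0% of all genes. The intronless genes thus held more higher calls than all genes in both genotypes, with no test of the difference. The counts and the backgrounds include genes with fewer than 20 read pairs at 22 °C. Such genes entered only through the 4 °C list, which fixed their direction, and their part in the higher calls was not tested.

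**Figure D5:**
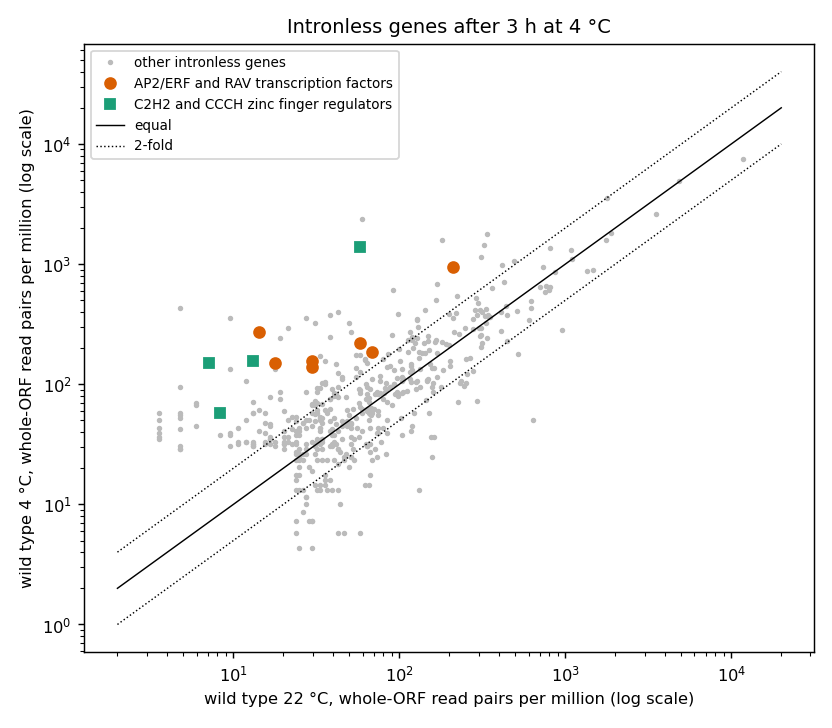
Whole-ORF RPM in wild type at 4 °C (vertical) and wild type at 22 °C (horizontal), both on log scales; each point is 1 of 496 intronless genes compared, circles are AP2/ERF and RAV transcription factors, squares are C2H2 and CCCH zinc finger regulators, and the dotted lines mark 2-fold. All 7 circles and all 4 squares lie above the upper dotted line.

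The AP2/ERF and RAV transcription factors, which include the CBF activators of the cold response, had 22 intronless genes, of which 19 were listed. All 7 compared in wild type were at least 2-fold higher at 4 °C than at 22 °C (median log2 ratio 2.23), as were all 6 in hen2-2 (median 2.51). Some entered the comparison only through the 4 °C list, which fixed their direction. Of those with at least 20 read pairs at 22 °C, 5 of 5 in wild type and 4 of 4 in hen2-2 were higher, in a list that was itself chosen with results of these data known. CBF2 had 559 whole-ORF read pairs in hen2-2 at 4 °C and 940 in wild type at 4 °C, and DREB1A, also known as CBF3, had 298 in hen2-2 at 4 °C and 395 in wild type at 4 °C. Neither was in any list at 22 °C, so no ratio is given. The CBF genes are tandem copies with similar coding sequences, and only uniquely placed reads were kept. CBF2 had 15 isoforms with 3 distinct 5′ ends and 6 distinct 3′ ends in wild type at 4 °C, and DREB1A had 6 isoforms.

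RAV1, a repressor of growth with an AP2 and a B3 domain, had 360 whole-ORF read pairs in hen2-2 at 4 °C and 41 in hen2-2 at 22 °C, 145 in spt16-1, 67 in ssrp1-2, and 654 in wild type at 4 °C against 178 in wild type at 22 °C (log2 ratio 2.17, 95% interval 1.93 to 2.41). It had 8 distinct 3′ ends in wild type at 4 °C against 4 in wild type at 22 °C. ERF5, an ethylene response factor, had 125 in hen2-2 at 4 °C and 14 in hen2-2 at 22 °C, 7 in spt16-1, 9 in ssrp1-2, and 187 in wild type at 4 °C against 12 in wild type at 22 °C (log2 ratio 4.25, 3.41 to 5.23). At 22 °C no AP2/ERF or RAV gene compared was at least 2-fold higher in a mutant than in wild type. Lower were 2 of 5 in hen2-2 (9.59% of all genes), 1 of 4 in spt16-1 (7.66%) and 3 of 5 in ssrp1-2 (10.7%). Among them, ERF104 had 14 whole-ORF read pairs in hen2-2, 15 in spt16-1 and 8 in ssrp1-2, against 58 in wild type. DREB26 had 3 in ssrp1-2 against 49 in wild type. These mutant values lay below the read-pair minimum for ratios, so the filter fixed the direction of these lower calls. RAV1, lower in hen2-2 and ssrp1-2, reached the minimum in those lists and in wild type.

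Of the 9 intronless C2H2 and CCCH zinc finger regulators, 6 were in a TIF-cluster list. STZ in wild type was the only one compared that had at least 20 read pairs at 22 °C, and the others entered through the 4 °C list, so their common direction carries no weight. STZ had 348 whole-ORF read pairs in hen2-2 at 4 °C against 3 in hen2-2 at 22 °C, and 960 in wild type at 4 °C against 49 in wild type at 22 °C (log2 ratio 4.58, 95% interval 4.17 to 5.03). RHL41, also known as ZAT12, had 66 against 6 in hen2-2 and 104 against 6 in wild type. ZAT6 had 27 against 7 in hen2-2 and 108 against 11 in wild type, and OZF2, a CCCH protein, had 40 against 7 in wild type. STZ had 13 isoforms in wild type at 4 °C against 3 in wild type at 22 °C. The PUB and ATL ubiquitin ligases had 8 listed genes, and ATL2 had 54 read pairs in wild type at 4 °C against 14 in wild type at 22 °C and AT1G20823 had 35 against 3. Both had fewer than 20 read pairs at 22 °C, so the filter fixed their direction. The calcium sensor CML37 had 33 read pairs in wild type at 4 °C and was in no other list.

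Of the genes outside these families, the highest ratios in the cold belonged to genes of unknown function. AT5G11070 had 228 whole-ORF read pairs in hen2-2 at 4 °C against 63 in hen2-2 at 22 °C (log2 ratio 2.81, 95% interval 2.40 to 3.23), and 295 in wild type at 4 °C against 4 in wild type at 22 °C (6.49, 5.12 to 8.38). Its value in wild type at 22 °C was below the 47 to 63 read pairs of the 3 mutants at 22 °C. AT1G70420, a DUF1645 protein, had 908 in hen2-2 at 4 °C against 37 in hen2-2 at 22 °C, and 1640 in wild type at 4 °C against 50 in wild type at 22 °C (5.32, 4.92 to 5.76). Its isoforms numbered 19 in wild type at 4 °C against 5 in wild type at 22 °C. AT4G27652 had 174 in hen2-2 at 4 °C and was not listed in hen2-2 at 22 °C, and it had 247 in wild type at 4 °C against 8 in wild type at 22 °C. In wild type at 22 °C, AT5G11070 and AT4G27652 lay below the read-pair minimum for ratios, so the filter fixed their direction in wild type. AT5G11070 in hen2-2 and AT1G70420 in both genotypes reached the minimum at both temperatures. AT1G70420 and AT4G27652 are among the TATAAA sequences printed above, and STZ held no TATAAA in that window.

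At the other extreme, AT1G64370, annotated as filaggrin-like, had 41 whole-ORF read pairs in hen2-2 at 4 °C against 579 in hen2-2 at 22 °C, and 35 in wild type at 4 °C against 535 in wild type at 22 °C (log2 ratio -3.65, 95% interval -4.18 to -3.15). OFP16, an ovate family protein, had 9 in wild type at 4 °C against 110 in wild type at 22 °C, AT1G49470 had 4 against 49, AT1G11700 had 4 against 39 and GRP5 had 4 against 36. In hen2-2, OFP16 had 7 at 4 °C against 24 at 22 °C and GRP5 had 11 against 39, but AT1G11700 had 45 against 23. In wild type at 4 °C, OFP16, AT1G49470, AT1G11700 and GRP5 lay below the read-pair minimum for ratios, so the filter fixed their direction there. The same held for OFP16 and GRP5 in hen2-2. AT1G64370 in both genotypes and AT1G11700 in hen2-2 reached the minimum at both temperatures. The 64 genes at least 2-fold lower in the cold had a median coding sequence of 424.5 nt, against 831 nt in the 134 higher genes. TATAAA was present upstream of the most used 5′ end in wild type at 4 °C in 34.3% of the higher genes, 34.4% of the lower genes and 27.5% of the 298 genes with less than a 2-fold difference, with intervals that overlapped.

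The other intronless families showed no common direction in the cold. The LHCB1 genes had 3 members compared and none called in any comparison. Of 13 replication-type histone genes (H4, H3.1 and H2B) compared, 2 were higher and 2 lower in wild type at 4 °C, with a median log2 ratio of -0.14. Among the 12 with at least 20 read pairs at 22 °C, 1 was higher and 2 lower. The histone H4 gene AT3G53730 had 112 whole-ORF read pairs in hen2-2 at 4 °C against 122 in hen2-2 at 22 °C (log2 ratio 0.83), and 223 in wild type at 4 °C against 42 in wild type at 22 °C (log2 ratio 2.70, 95% interval 2.22 to 3.21), whereas the H2B gene HTB4 had 249 against 294 in wild type (log2 ratio 0.05, 95% interval -0.20 to 0.30). Histone genes are near-identical in their coding sequences, so their values are uncertain for the reason given for LHCB1. Of 13 cell wall and secreted proteins compared, 1 was higher and 3 lower in wild type at 4 °C, and the extensin-like ELP had 897 against 912.

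Of 65 intronless SAUR genes, small proteins of auxin-driven cell expansion, 34 were listed, and of the 6 compared in wild type 1 was higher and 3 lower at 4 °C (median log2 ratio -1.01). In hen2-2, 2 of 6 were higher and 4 lower (median -1.98). Among the 5 with at least 20 read pairs at 22 °C, 0 were higher and 3 lower in wild type, and 1 was higher and 4 lower in hen2-2. AT1G72430 was the clearest, with 4 whole-ORF read pairs in hen2-2 at 4 °C against 74 in hen2-2 at 22 °C, and 17 in wild type at 4 °C against 133 in wild type at 22 °C (log2 ratio -2.68, 95% interval -3.50 to -1.95). SAUR20 went the other way in hen2-2, with 67 against 50 (log2 ratio of RPM 1.37, 0.82 to 1.93), and had 59 against 89 in wild type (-0.30, -0.80 to 0.19). Of 113 pentatricopeptide repeat genes, which process organelle RNA, 42 were listed and none had more than 49 read pairs in a list. Of those compared, 3 of 6 were higher in wild type at 4 °C (15.3% of all genes). Of the 4 with at least 20 read pairs at 22 °C, 1 was higher, and the filter fixed the direction of the other higher calls. In hen2-2 at 4 °C, 3 of 3 were lower, where 20.3% of all genes were lower and the median of all genes was -0.31. These 3 had 10, 4 and 4 read pairs at 4 °C, so the filter fixed their direction too. UDP-glycosyltransferases had 14 of 28 genes listed, with 1 of 3 higher in wild type at 4 °C. The small heat shock proteins had 5 of 8 genes listed, 5 in spt16-1, 3 in hen2-2 at 22 °C, 1 in wild type at 4 °C, 1 in wild type at 22 °C and none in the remaining lists, with at most 39 read pairs each. Of the MYB44 clade of regulators, MYB77 had 27 whole-ORF read pairs in wild type at 4 °C against 13 in wild type at 22 °C, and MYB70 had 41 against 63.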

How the data were processed

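TIF-seq libraries of whole seedlings were used. Per the labels and the study's methods, the authors aligned the reads to TAIR10 with STAR 2.6.1c, kept unique alignments, removed duplicates by molecular identifier, merged the 2 libraries of a group and clustered read pairs by their ends. The methods also describe discarding TIF-clusters that end at genomic runs of A, and starts without a matching TSS-seq start. The deposited lists give whole-number counts of read pairs per TIF-cluster, with no normalization, and hold only TIF-clusters of at least 3 read pairs. The 6 TSS-seq samples of the series were not analysed here.

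Gene models were Araport11 on TAIR10. A sense TIF-cluster was given to the 1 non-overlapping coding gene it lies on and sorted by the outermost start and stop codons. Read pairs of each list were divided by its total (410655 to 924907) and scaled to 1000000 (RPM). Ends within 20 nt of the next one were chained into 1 distinct end. Genes with introns were averaged within 8 bins of read pairs per gene, in an alternative also within bins of gene length, and weighted to the intronless genes. Ratios between lists used genes with whole-ORF TIF-clusters in both lists and at least 20 read pairs in one of them. They were called at 2-fold, with exact intervals that cover counting error only. Because each group is 1 merged list, no test between groups was made.

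Named genes were taken by rule: the 10 genes with the most read pairs over the 6 lists, the 5 with the most isoforms in wild type at 22 °C, the 5 highest and 5 lowest ratios in the cold in wild type and in hen2-2 over wild type, the 5 with the most short TIF-clusters from the start in hen2-2, the 5 with the most internal-start read pairs, and up to 4 members of each gene list with the most whole-ORF read pairs. CRU3, SESA1, CRA1, RBCS1A, RCA and CAB1 only check the tissue. The members and the gene lists were chosen with earlier results of these data known. Alternatives were a minimum of 5 read pairs, a floor in RPM, ends merged within 50 nt, coding sequence in 1 exon, gene-length bins, no weighting, a limit of 200 nt, the largest TIF-cluster in place of the most used end, at least 50 read pairs or all sense read pairs for ratios, and scaling by the median ratio. Sorting and calls were checked on simulated data. Scripts ran in Python 3.11.15, with pandas 2.3.3 on numpy 2.4.6 for tables, scipy 1.17.1 for intervals, and matplotlib 3.10.9 for plots.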

Additional observations from a re-analysis of the deposited data

Results flagged for a closer look

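TIF-clusters that ran over an intronless gene and a neighbour on the same strand were left out of the description above. There were 15 in wild type at 22 °C, with 92 read pairs, above the minimum of 3 read pairs that the lists allow. The other lists held 6 in hen2-2 at 4 °C (24 read pairs), 15 in hen2-2 at 22 °C (72), 16 in spt16-1 (84), 7 in ssrp1-2 (39) and 13 in wild type at 4 °C (60).

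For 4 named genes the cold comparison was at least 2-fold in opposite directions in the 2 genotypes, with the difference between the log2 ratios given as wild type minus hen2-2 and not tested. MOS2 had 3 whole-ORF read pairs in hen2-2 at 4 °C against 26 in hen2-2 at 22 °C, and 24 in wild type at 4 °C against 3 in wild type at 22 °C, a difference of 5.45. AT1G11700 had 45 in hen2-2 at 4 °C against 23 in hen2-2 at 22 °C, and 4 in wild type at 4 °C against 39 in wild type at 22 °C (-4.92). AT5G38980 had 24 in hen2-2 at 4 °C against 14 in hen2-2 at 22 °C, and 40 in wild type at 4 °C against 127 in wild type at 22 °C (-3.11). AT5G15980, a pentatricopeptide repeat gene, had 4 in hen2-2 at 4 °C against 22 in hen2-2 at 22 °C, and 32 in wild type at 4 °C against 14 in wild type at 22 °C (2.99). In each gene at least 1 of the 4 values was 14 read pairs or fewer.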

How the results depend on the processing

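Differences below are intronless genes minus genes with introns, in wild type at 22 °C unless stated, and the cause of each shift was not tested. With gene length weighted in, the differences became 0.12 isoforms, 0.0405 distinct 5′ ends, 7 nt from 5′ end to start codon and -0.5 nt from stop codon to 3′ end, and, in weightings added after seeing the data, 2.07 percentage points for TATAAA and -0.52 for AATAAA. With TIF-clusters within 50 nt merged, they were 0.0242 isoforms, -0.0706 distinct 5′ ends and 0.0866 distinct 3′ ends. With the coding sequence in 1 exon as the rule, internal starts gave -0.37 and short TIF-clusters in hen2-2 gave 0.65 percentage points. Short TIF-clusters in hen2-2 gave 0.63 with a minimum of 5 read pairs and 0.73 with an equal minimum in RPM, under which wild type gave 0.45 and listed genes numbered 626. At 50 read pairs or more, the higher and lower counts were 48 and 23 of 243 in hen2-2 at 4 °C over hen2-2 at 22 °C, 21 and 31 of 258 in hen2-2 over wild type, 28 and 24 of 274 in spt16-1, 15 and 38 of 247 in ssrp1-2, and 77 and 33 of 288 in wild type at 4 °C over 22 °C. This setting compared fewer genes. Of the values of named genes, 627 moved by less than their counting interval, 56 moved further and 0 changed sign when called.

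No paired analysis was possible because each list merges both libraries of its group, and for the same reason leaving out a library was not done. Moving both ends outward by 6 nt, sorting by the coding span shared by all mRNAs and the step at other offsets were also added after seeing the data. Small lists miss rare TIF-clusters, so a gene or isoform absent from hen2-2 at 4 °C was not detectable at this depth.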

Other observations

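Antisense TIF-clusters at intronless genes were few in every list. They numbered 34 at 23 genes in hen2-2 at 4 °C, 44 at 32 genes in hen2-2 at 22 °C, 56 at 31 genes in spt16-1, 43 at 30 genes in ssrp1-2, 44 at 26 genes in wild type at 4 °C and 38 at 23 genes in wild type at 22 °C. They amounted to 375 RPM in hen2-2 at 4 °C, 395 in hen2-2 at 22 °C, 356 in spt16-1, 347 in ssrp1-2, 374 in wild type at 4 °C and 387 in wild type at 22 °C.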
